A study of Mus musculus with 11 samples.

Results

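Axon guidance ligands and receptors are the secreted and membrane-bound cues that steer growing axons, and the proteins on the axon surface that read them. The genes described here were chosen by symbol as the ephrins and Eph receptors, the semaphorins of classes 3 to 7 with the plexins and neuropilins, the Slits and Robos, and the netrin receptors Dcc and Unc5a to Unc5d. The rule found 65 genes among 38197 in the count table, of which 31 code for ligands and 34 for receptors. The rule used symbols and no measured value, but it was set with earlier results of these data known. All libraries came from E14, a mouse embryonic stem cell line of strain 129 and wild type genotype grown as a monolayer. RA (retinoic acid) and SAG (an agonist of the hedgehog transducer Smoothened) were applied from day 0 to direct the cells toward ventral hindbrain types, and cultures were sampled at days 0, 1, 2 and 3 of differentiation. Day 0 was the stem cell culture. There were 2 unsorted libraries at each day, and 3 further libraries held Prominin-1 positive progenitors isolated by sorting. Their cell status reads day 3.5, the name used here, while another of their labels says 3 days. E14 is a single line and 2 libraries a day is the whole replication. Nothing in the labels says that replicates were separate cultures, so the p-values measure only the spread between these libraries, which may be technical.

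Slits are secreted repellents read by Robo receptors, and they keep axons from crossing or re-crossing the ventral midline. Netrin is read by Dcc as an attractant and by the Unc5 receptors as a repellent. Ephrins are tethered to membranes and signal both into the cell that carries the Eph receptor and back into the cell that carries the ephrin. Class 3 semaphorins are secreted and bind neuropilins, which signal through plexin-A partners, whereas most other semaphorins bind plexins directly. The floor plate at the ventral midline of the hindbrain is a textbook source of netrin and Slit proteins.

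Sequencing depth ran from 26136331 to 30384599 counts in the 8 unsorted libraries and from 13173674 to 17113430 in the 3 sorted ones. Marker genes changed with time, but not every list moved steadily. The 5 pluripotency markers (Nanog, Pou5f1, Zfp42, Esrrb, Klf4) summed to 11.2 to 15.3 CPM (normalised counts scaled to library size) on day 3 and to 991 to 1048 CPM on day 0, and Nanog and Pou5f1 had 3 or fewer counts in each sorted library. Of the floor plate markers, Foxa2 was at 1.60 and 2.01 CPM on day 0, 8.73 and 9.22 on day 1, 105 and 62.4 on day 2, 179 and 108 on day 3, and 111, 94.1 and 138 in the sorted libraries. Shh was at 0.102 and 0.171 CPM on day 0, 50.8 and 26.4 on day 2, and 232, 195 and 263 in the sorted libraries. The 8 neuron markers summed to 948 to 1150 CPM on day 3 and to 108 to 129 CPM on day 2. In these bulk libraries more cells of a type and more RNA per cell cannot be told apart, and the part of the changing cell mixture in the results below was not tested.

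The sequence before the gene start is shown for 3 members as examples, which do not stand for the commonest patterns of calls. They are Slit2, which rose through the series, and Epha2 and Unc5b, the leading EphA and Unc5 genes of stem cells, which fell. Each run is the 250 bases upstream of a RefSeq start on GRCm38.p6, read 5′ to 3′ on the gene's strand, at chr5:47982905-47983154 on the plus strand for Slit2, chr4:141300971-141301220 on the plus strand for Epha2 and chr10:60831582-60831831 on the minus strand for Unc5b. Capitals mark matches on either strand to any of 5 motifs, namely the proneural E-boxes CAGCTG and CAGATG, the Gli core GACCACCC, the nuclear receptor half-site AGGTCA and the TATA box TATAAA.
Slit2: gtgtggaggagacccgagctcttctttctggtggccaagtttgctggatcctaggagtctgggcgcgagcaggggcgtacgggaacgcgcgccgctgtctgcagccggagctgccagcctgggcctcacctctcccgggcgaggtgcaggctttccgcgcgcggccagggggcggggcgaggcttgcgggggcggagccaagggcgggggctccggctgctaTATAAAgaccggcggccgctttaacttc
Epha2: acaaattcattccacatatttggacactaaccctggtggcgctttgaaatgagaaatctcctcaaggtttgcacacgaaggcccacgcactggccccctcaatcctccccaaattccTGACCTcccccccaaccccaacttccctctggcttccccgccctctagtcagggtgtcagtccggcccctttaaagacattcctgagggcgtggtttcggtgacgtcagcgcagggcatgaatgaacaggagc
Unc5b: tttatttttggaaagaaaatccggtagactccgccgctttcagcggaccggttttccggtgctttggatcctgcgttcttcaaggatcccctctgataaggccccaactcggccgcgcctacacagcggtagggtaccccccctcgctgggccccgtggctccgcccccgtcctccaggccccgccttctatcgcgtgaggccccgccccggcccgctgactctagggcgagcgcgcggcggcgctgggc
The Slit2 window held 1 TATA box match close to the start, the Epha2 window held 1 half-site match, as TGACCT on this strand, and the Unc5b window held no match to these letters. RefSeq gave a window for 56 of the 65 members, 72 windows in all. The TATA box letters were in 2.78% of member windows and in 12.4% of all 32851 windows of the same length. CAGCTG was in 15.3% of member windows and 13.0% of all, CAGATG in 6.94% and 14.4%, AGGTCA in 12.5% and 14.0%, and GACCACCC in 0 of 72 member windows and 0.703% of all. Member windows had a median GC content of 64.4%, and all windows 52.4%. These shares describe letters in a window and say nothing of binding.

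Most guidance genes rose over the 3 days. Of the 63 members with enough counts for testing, 46 were higher and 5 lower on day 3 than on day 0, while 27.6% of all 16810 tested genes were higher and 26.3% lower (edgeR quasi-likelihood test, Benjamini-Hochberg adjusted p under 0.05 over all genes, as throughout). The median log2 fold change was 2.17 over the members and 0.02 over all genes tested. Among receptors 25 of 32 were higher and 4 lower, and among ligands 21 of 31 were higher and 1 lower. The 5 that fell were Epha1, Epha2, Robo4, Sema4a and Unc5b. The 2 untested members were Epha6 and Plxnb3, which had at most 4 and 10 counts in any library. A test of any change over days 0 to 3 called 51 of 63 members, against 53.7% of all genes, and of these 38 had their highest mean on day 3, 8 on day 2 and 5 on day 0. Exons of 16 members overlap those of another gene, in most cases on the opposite strand and in 3 on the same one. The sources used here do not say whether counting used strand, so these counts are uncertain. The 16 include Epha1, Nrp1, Plxna4, Plxnc1, Sema4a, Sema4c, Ephb1, Efna4, Plxna1, Unc5a and Unc5c.

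**Figure D1:**
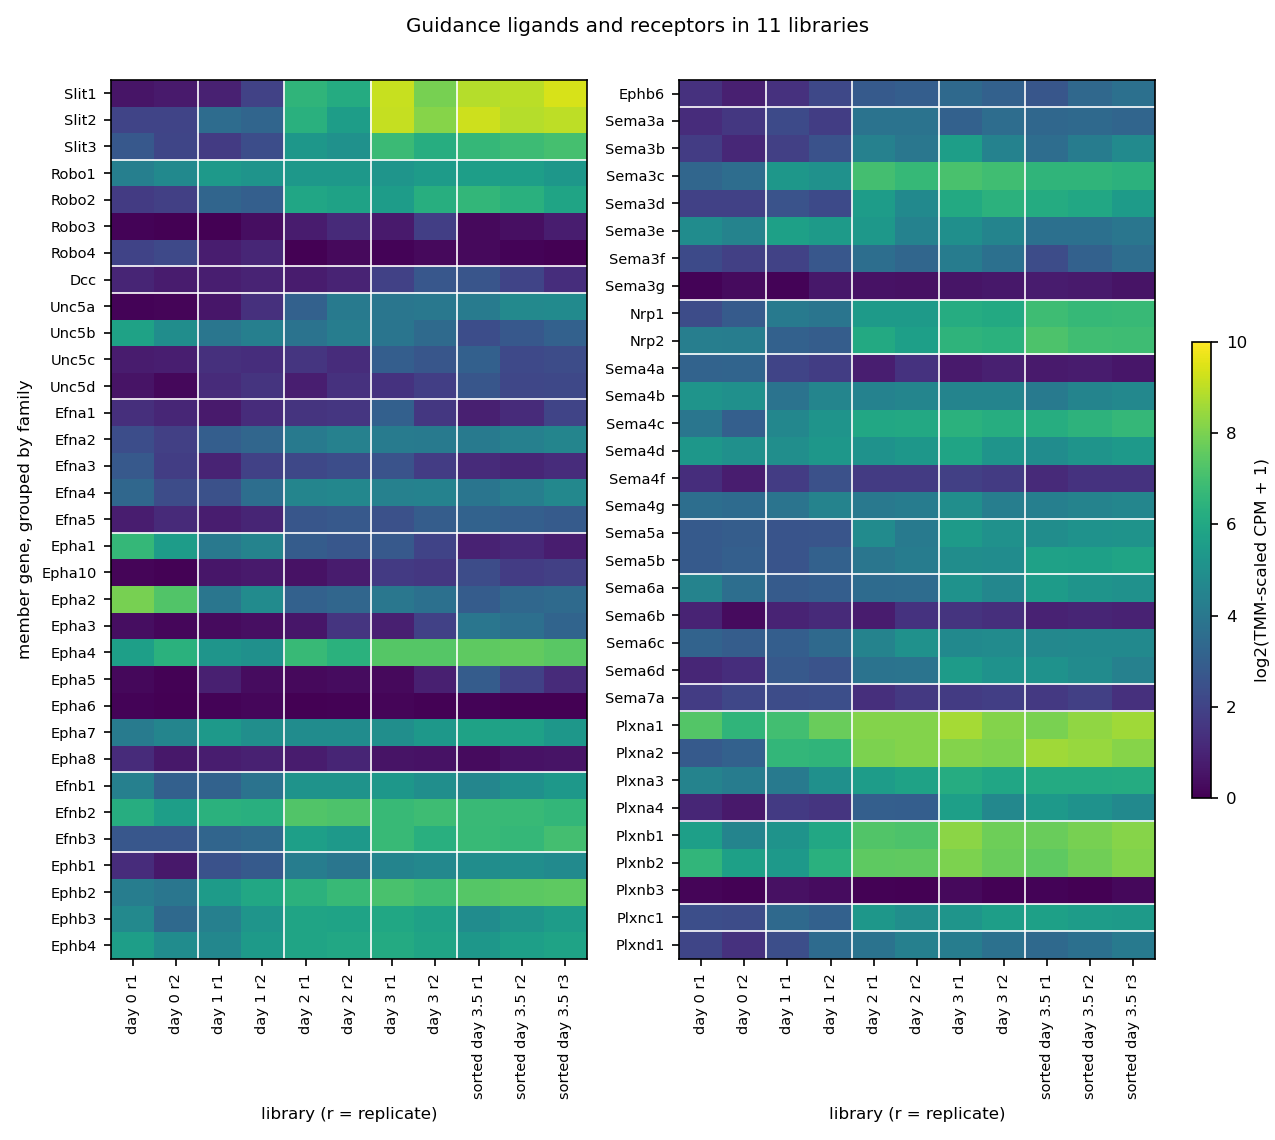
Log2(CPM + 1) of the 65 members (rows, grouped by family) in each of 11 libraries (columns, day 0 at left, r = replicate). Slit1 and Slit2 reach the top of the colour scale on day 3 and in the sorted libraries, while Epha1, Epha2 and Unc5b are brightest on day 0.

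**Figure D2:**
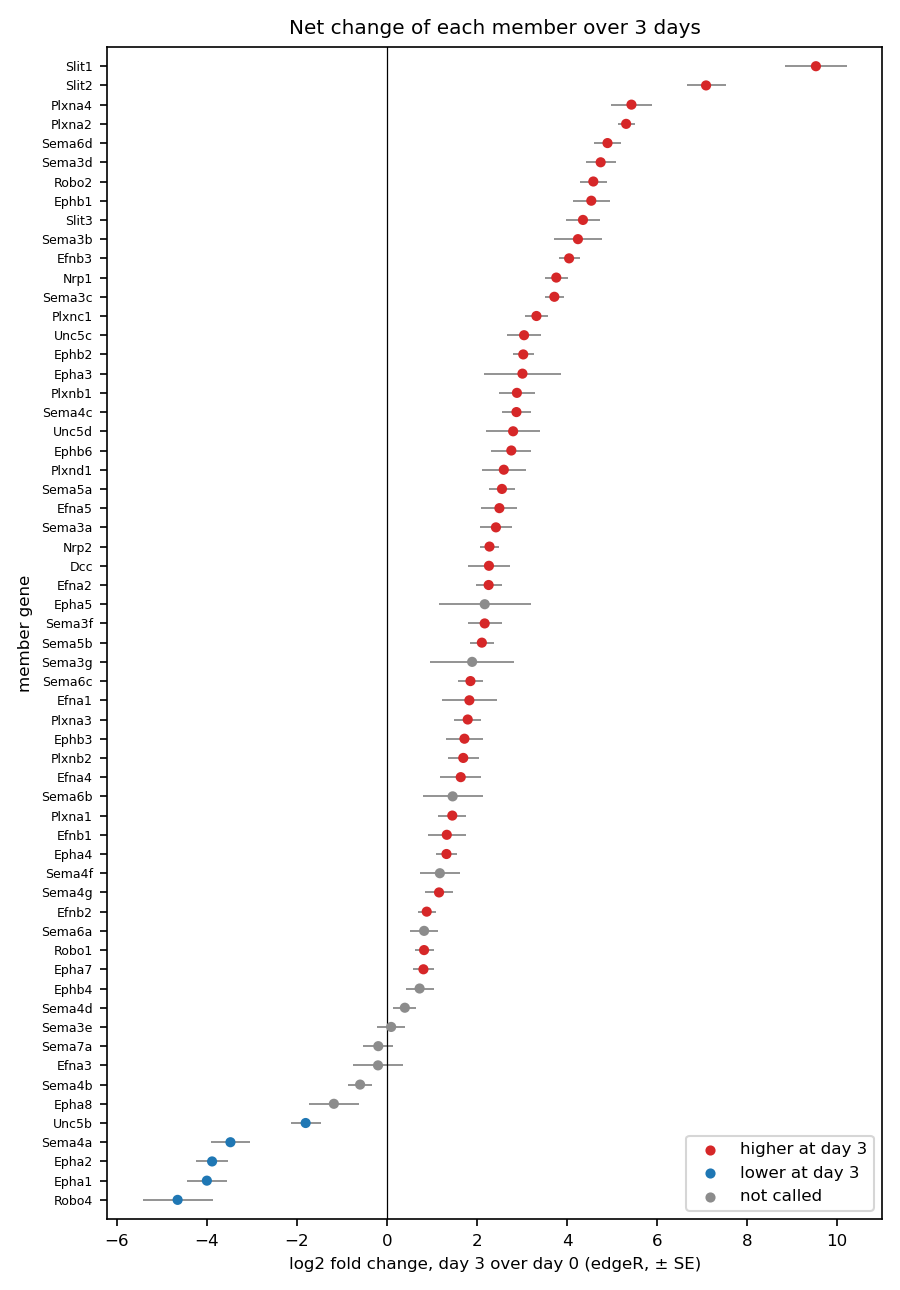
Log2 fold change of day 3 over day 0 (horizontal axis) with its SE for 60 members in order of size, with red points for higher, blue for lower and grey for not called. The 3 members left out had 3 or fewer counts in both day 0 libraries, and Slit1 at 9.53 is at the top and Robo4 at -4.65 at the bottom.

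The timing of the rise differed between steps. On day 1 against day 0, 19 members were higher, against 12.0% of all genes, and 8 lower, against 8.91%. On day 2 against day 1, 33 were higher, against 9.65% of all genes, and 4 lower, against 9.99%. The commonest pattern was a single called rise on day 2, seen in 16 members, ahead of no call at any step in 14. Rises at both days 1 and 2 were seen in 10, and on day 1 only in 6. The 4 that fell on day 2 were Epha1, Epha2, Robo4 and Sema7a, with 4 in DESeq2 and 5 at an unadjusted p under 0.05 in edgeR. Slit2, Efnb3 and Sema6d were called higher at all 3 steps, and 14 members were called at none. The first step of Efnb3 (log2 fold change 0.73 ± 0.22, edgeR adjusted p = 0.0416) was lost on leaving out any 1 library of days 0 to 2 (0.0574 to 0.131), in the FPKM settings (0.0542 to 0.173), with a replicate block (0.071) and with the GC offset (0.111). The first step of Slit2 (log2 fold change 1.62 ± 0.37, edgeR adjusted p = 0.0164) was lost without day 0 replicate 1 (0.0583) or replicate 2 (0.0635) and in the FPKM settings (0.0914 to 0.217). The middle step of Sema6d was lost without day 2 replicate 1 (0.0582) or replicate 2 (0.0582) and in the FPKM settings (0.0511 to 0.084). Leaving out 1 library of a compared day leaves 1 library in that group, which changed these counts. Calls over all genes fell too, except on day 2 against day 1 without day 1 replicate 2, where they rose. Without day 0 replicate 2, 11 members were higher on day 1, and the lower count was 4 without day 0 replicate 1 and 5 without any other 1 library of days 0 and 1. On day 2 the higher count was 18 without its replicate 1 and 21 without its replicate 2, and the members lower numbered 0 on leaving out day 1 replicate 2, 0 on leaving out day 2 replicate 1 and 1 on leaving out day 2 replicate 2. On the deposited FPKM (fragments scaled to gene length and library size), taken as log2(FPKM + 1), the counts were 10 higher and 1 lower on day 1, and 20 higher and 0 lower on day 2, over 50 members. Over all 16008 genes of that setting, 1551 were higher and 760 lower on day 1, and 927 higher and 1277 lower on day 2.

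Slit1 and Slit2 had the largest fold changes over 3 days among the 60 members for which a fold is given. Slit1 was at 0.476 and 0.642 CPM on day 0, 0.866 and 2.94 on day 1, 91.4 and 69.6 on day 2, 571 and 248 on day 3, and 476, 499.6 and 672 in the sorted day 3.5 libraries. Slit2 was at 3.16 and 3.12 CPM on day 0, 10.7 and 8.69 on day 1, 80.7 and 46.3 on day 2, 562 and 291 on day 3, and 605, 473 and 506 in the sorted libraries. Both went up in steps with no overlap between days 1, 2 and 3, and Slit2 was already clear of its day 0 values on day 1. Slit3 was at 5.78 and 3.30 CPM on day 0, 2.31 and 4.09 on day 1, 38.4 and 32.4 on day 2, 112 and 74.2 on day 3, and 101, 114 and 129.9 in the sorted libraries. Its day 0 and day 1 values overlapped, so its rise began on day 2. Day 3 against day 0, the log2 fold changes were 9.53 ± 0.69 for Slit1 (SE, adjusted p = 1.07e-05), 7.09 ± 0.43 for Slit2 (adjusted p = 5.1e-06) and 4.35 ± 0.38 for Slit3 (adjusted p = 2.81e-05). All 3 were also higher on day 2 than on day 1, by 5.38 ± 0.56, 2.72 ± 0.35 and 3.46 ± 0.37 on the log2 scale, with adjusted p of 0.000386, 0.00119 and 0.000451, and each call remained without any 1 library. The length-normalised sum of the 3 genes was 2.60 and 2.40 FPKM on day 0, 5.88 and 4.16 on day 1, 51.7 and 37.3 on day 2, 293 and 162 on day 3, and 277, 267 and 299 in the sorted libraries. Day 3 replicate 1 was higher than replicate 2 for every Slit, and also for the floor plate markers Shh (279 and 114 CPM), Foxa2 (179 and 108 CPM) and Ntn1 (1358 and 765 CPM). Members in general leaned the same way, with a median log2 difference of replicate 1 over replicate 2 of 0.174 on day 3, against -0.006 over all genes. That median over members was 0.304 on day 0, -0.34 on day 1 and -0.042 on day 2. The part of the floor plate markers in the Slit values was not tested.

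**Figure D3:**
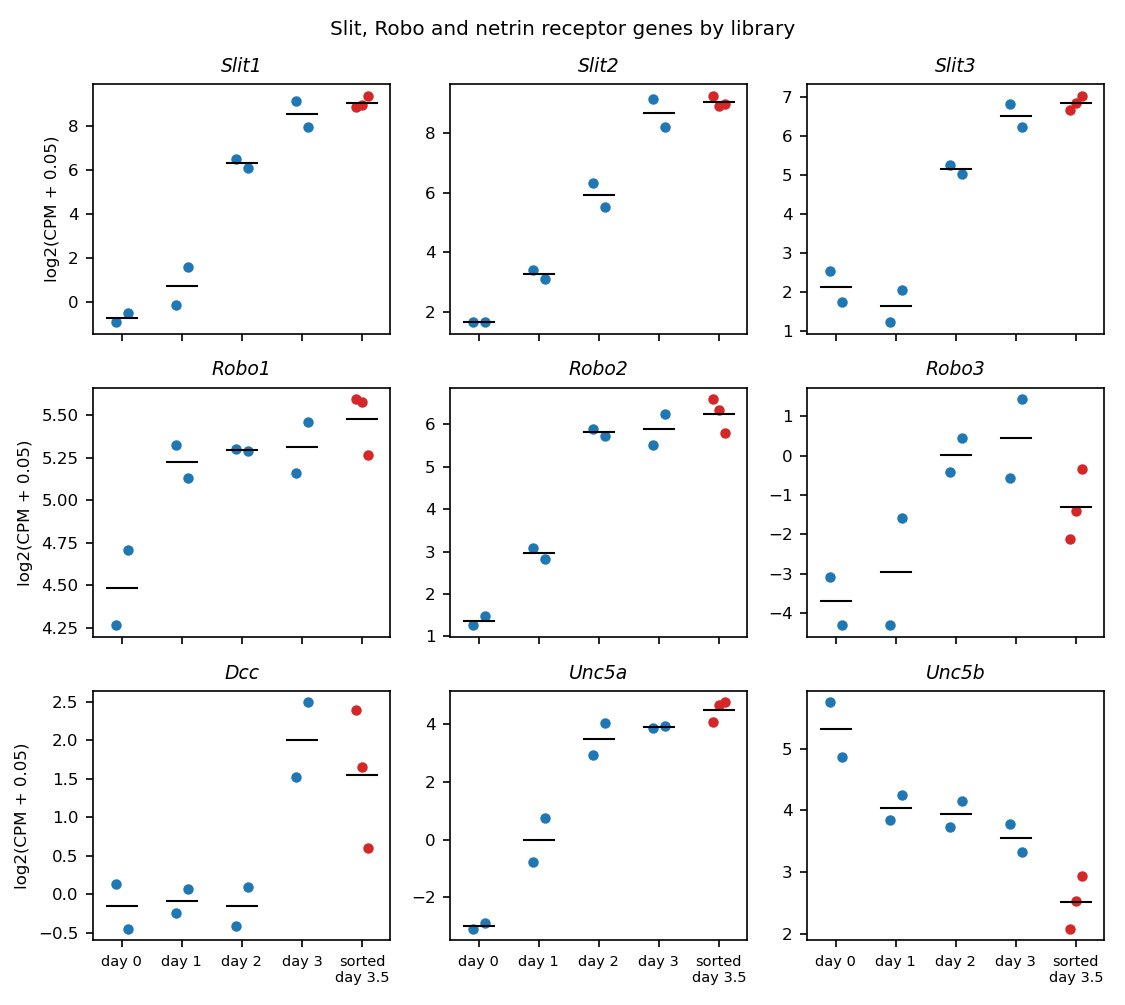
Log2(CPM + 0.05) of Slit, Robo, Dcc and Unc5 genes (vertical axis, scaled per gene) by day, 1 point per library, blue for unsorted and red for sorted, with a bar at the mean. The 3 Slits and Robo2 climb between days 1 and 2, Dcc first moves on day 3, and Unc5b goes down while Unc5a goes up.

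Of the 4 Robo receptors, 3 were higher and 1 lower on day 3 than on day 0, and the leading one changed. Of all genes tested, 27.6% were higher and 26.3% lower, so the count of lower Robo genes was near that share. Robo2, a Slit receptor of commissural and hindbrain neurons, was at 2.35 and 2.74 CPM on day 0, 8.48 and 7.06 on day 1, 59.3 and 53.0 on day 2, 45.6 and 75.7 on day 3, and 96.4, 80.2 and 55.5 in the sorted libraries. It rose on day 2 against day 1 by 2.86 ± 0.27 on the log2 scale (edgeR, adjusted p = 0.000266), and its day 2 and day 3 values overlapped. Robo1, which shares that role, lay between 35.0 and 48.3 CPM in all libraries after day 0 and between 19.2 and 26.1 CPM on day 0. On FPKM, Robo1 held 56.8% of the family sum on day 0 and 66.1% on day 1, and Robo2 held 71.5% on day 2, 74.9% on day 3 and 74.2% in the sorted libraries. Day 3 against day 0, Robo2 was higher by 4.58 ± 0.30 on the log2 scale (edgeR, adjusted p = 7.07e-06) and Robo1 by 0.82 ± 0.21 (adjusted p = 0.0092). The Robo1 call was lost without day 0 replicate 1 (adjusted p = 0.0528) or day 3 replicate 2 (0.0652). Robo3, which in mice lets commissural axons approach the midline, had 2 and 0 counts on day 0, so no fold is given. It had 20 and 82 counts on day 3, its edgeR call (adjusted p = 0.00919) was lost without day 3 replicate 2 (0.0729) and on unfiltered log2(FPKM + 1) (0.199), and its level was 0.629 and 2.67 CPM on day 3 and 0.179, 0.324 and 0.735 CPM in the sorted libraries. Robo4, known from endothelial cells, went the other way, at 3.06 and 3.64 CPM on day 0, 0.757 and 1.12 on day 1, 0 and 0.182 on day 2, and 0.0629 and 0.195 on day 3. It fell by 4.65 ± 0.78 on the log2 scale on day 3 against day 0 (edgeR, adjusted p = 0.000994). A list of 6 endothelial markers summed to 20.7 to 25.1 CPM on day 3 and to 52.4 to 66.3 CPM on day 0. Emcn had 3 or fewer counts on both days, and the markers did not move together. Pecam1 was at 0.88 and 0.62 CPM on day 3 and 37.0 and 52.3 CPM on day 0, and Tek was also lower. Cdh5 was at 13.3 and 11.4 CPM on day 3 and 3.81 and 2.48 CPM on day 0, and Kdr was also higher. The part of these markers in the Robo4 change was not tested.

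The netrin receptors split between a repellent receptor of stem cells and receptors that came up later. Unc5b was at 53.9 and 29.2 CPM on day 0, 14.3 and 18.9 on day 1, 13.2 and 17.8 on day 2, 13.7 and 9.95 on day 3, and 4.18, 5.71 and 7.57 in the sorted libraries. Unc5a was at 0.541 and 1.62 CPM on day 1, 7.62 and 16.3 on day 2, 14.4 and 15.2 on day 3, and 16.7, 25.1 and 26.8 in the sorted libraries, after 2 counts in each day 0 library. The values of the pair therefore crossed, with every later Unc5b library under the lower day 0 one. Unc5b fell by 1.81 ± 0.33 on the log2 scale on day 3 against day 0 (edgeR, adjusted p = 0.00174), a call lost on log2(FPKM + 1) without a filter (adjusted p = 0.0564). Unc5a was higher on day 2 than on day 1 by 3.45 ± 0.52 (edgeR, adjusted p = 0.00252), a call lost in the same setting (0.057). On FPKM, Unc5b held 97.8% of the Unc5 sum on day 0 and 70.3% on day 1, and Unc5a held 62.7% on day 2, 66.1% on day 3 and 84.3% in the sorted libraries. Dcc, the attractive netrin receptor, stayed between 0.685 and 1.05 CPM from day 0 to day 2, then stood at 2.83 and 5.59 CPM on day 3 and at 5.20, 3.11 and 1.47 CPM in the sorted libraries. Unc5c stood at 0.680 and 0.814 CPM on day 0, 1.62 and 1.47 on day 1, 1.93 and 1.38 on day 2, and 6.92 and 5.36 on day 3. Dcc first separated from its earlier libraries on day 3, while Unc5c on day 1 already lay above both day 0 libraries, without a call (edgeR, adjusted p = 0.0786). Both were highest on day 3 among the unsorted libraries. Day 3 against day 0, Dcc was higher by 2.26 ± 0.47 on the log2 scale (edgeR, adjusted p = 0.00328) and Unc5c by 3.04 ± 0.37 (adjusted p = 0.000177), and both calls remained without any 1 library. Unc5d was higher too, by 2.80 ± 0.59 (adjusted p = 0.00358), at 1.76 and 2.67 CPM on day 3 and 0.442 and 0.171 CPM on day 0.

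Of 8 tested EphA receptors, 4 were higher and 2 lower on day 3 than on day 0, and the leading gene changed. Of all genes tested, 27.6% were higher and 26.3% lower, so the count of lower EphA genes was near that share. Epha2, an Eph receptor known from stem cells and epithelia, was at 244 and 154 CPM on day 0, 14 and 27.5 on day 1, 7.58 and 8.98 on day 2, 14.8 and 12 on day 3, and 6.57, 9.21 and 10.1 in the sorted libraries. Epha1 was at 99.1 and 45.0 CPM on day 0, 15.6 and 21.4 on day 1, 6.62 and 5.63 on day 2, 5.88 and 3.06 on day 3, and 0.956, 1.23 and 0.735 in the sorted libraries. Both were lower in every later library than in either day 0 library. Epha2 fell by 3.26 ± 0.35 on the log2 scale on day 1 against day 0 (edgeR, adjusted p = 0.000621) and by 3.89 ± 0.36 on day 3 against day 0 (adjusted p = 3.68e-05). Epha1 fell by 1.97 ± 0.41 on day 1 (edgeR, adjusted p = 0.0106, but 0.0636 on log2(FPKM + 1), 0.0793 on log2(FPKM + 0.1) and 0.118 without a filter on FPKM) and by 4.0 ± 0.45 on day 3 against day 0 (adjusted p = 0.00011). Epha4, which repels axons from the ephrin-rich midline, took the opposite course after a dip. It was at 49.6 and 82.4 CPM on day 0, 36.4 and 31.1 on day 1, 105 and 83.6 on day 2, 165 and 164 on day 3, and 183, 190.1 and 172 in the sorted libraries. It rose by 1.49 ± 0.24 on the log2 scale on day 2 against day 1 (edgeR, adjusted p = 0.00349) and by 1.32 ± 0.24 on day 3 against day 0 (adjusted p = 0.00158). The dip on day 1 was a log2 change of -0.97 ± 0.24 (edgeR, adjusted p = 0.0218), and the call was lost without day 0 replicate 2 (0.112) or day 1 replicate 2 (0.0773) and in all FPKM settings (0.0812 to 0.136). On FPKM, Epha2 held 58.1% of the EphA sum on day 0, Epha7 was the leading member on day 1 with 26.3%, and Epha4 held 58.7% on day 2, 65.7% on day 3 and 63.4% in the sorted libraries. The EphA sum itself was 76.7 and 45.9 FPKM on day 0, 16.3 and 19.9 on day 1, 20.7 and 18.4 on day 2, and 32.1 and 30.7 on day 3. Epha7 was higher on day 3 than on day 0 by 0.81 ± 0.24 on the log2 scale (edgeR, adjusted p = 0.019), at 30.0 and 39.1 CPM on day 3 and 16.9 and 22.7 CPM on day 0, a call lost without day 0 replicate 1 (0.0975) or day 3 replicate 2 (0.124). Epha3 was higher by 3.01 ± 0.86 (edgeR, adjusted p = 0.0151), at 0.849 and 2.79 CPM on day 3 and 0.306 and 0.128 CPM on day 0, a call lost without day 0 replicate 2 (0.0756) or day 3 replicate 2 (0.132) and on unfiltered log2(FPKM + 1) (0.14). Epha10 was called higher too (edgeR, adjusted p = 0.000239), with 72 and 64 counts on day 3 and 3 and 1 counts on day 0, so no fold is given. Epha5 and Epha8 were not called (adjusted p = 0.1 and 0.103).

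**Figure D4:**
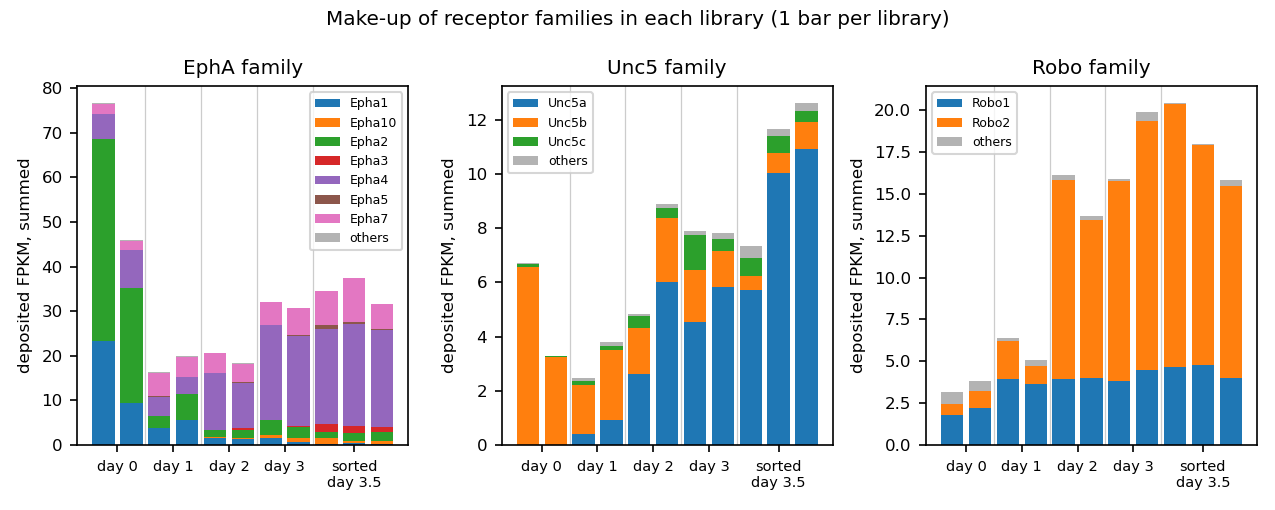
Deposited FPKM stacked by gene in each library (1 bar per library, day 0 at left) for the EphA, Unc5 and Robo families, with genes that never reach 1 FPKM pooled in grey. Epha2, Unc5b and Robo1 fill most of the day 0 bars, and Epha4, Unc5a and Robo2 most of the day 3 and sorted ones.

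Of the 5 EphB receptors, 4 were higher on day 3 than on day 0, and all 3 ephrin-B ligands were higher, against 27.6% of all genes. Ephb4 was not called (log2 fold change 0.72 ± 0.31, edgeR adjusted p = 0.0754). Ephb2, a receptor for ephrin-Bs on commissural and other axons, was at 17.9 and 14.2 CPM on day 0, 43.5 and 63.0 on day 1, 84.6 and 106 on day 2, 138 and 122 on day 3, and 162, 176 and 181 in the sorted libraries. Ephb1 was at 1.39 and 0.557 CPM on day 0, 4.76 and 6.16 on day 1, 17.9 and 14.1 on day 2, 21.6 and 24.6 on day 3, and 28.6, 29.8 and 26.5 in the sorted libraries. Neither gene had overlapping libraries between any 2 successive groups. Day 3 against day 0, Ephb1 was higher by 4.54 ± 0.41 on the log2 scale (edgeR, adjusted p = 3.24e-05) and Ephb2 by 3.03 ± 0.24 (adjusted p = 1.59e-05). Both were also higher on day 1 than on day 0, by 2.45 ± 0.39 and 1.73 ± 0.23 (adjusted p = 0.00348 and 0.00159). Ephb2 led the EphB sum on FPKM in every group, with 57.8% in the sorted libraries and 39.5% on day 0. Among ligands Efnb3, a midline ephrin in mice, was at 5.5 and 5.65 CPM on day 0, 8.62 and 9.94 on day 1, 48.7 and 41.1 on day 2, 106 and 77.3 on day 3, and 104, 101 and 126.4 in the sorted libraries. Efnb2 peaked earlier, at 73.6 and 48.2 CPM on day 0, 82.5 and 78.0 on day 1, 153 and 145 on day 2, 107 and 117 on day 3, and 108, 107 and 97.9 in the sorted libraries. Day 3 against day 0, Efnb3 was higher by 4.05 ± 0.23 on the log2 scale (edgeR, adjusted p = 3.86e-06) and Efnb2 by 0.88 ± 0.20 (adjusted p = 0.00506). Efnb1 was higher by 1.33 ± 0.42 (edgeR, adjusted p = 0.0237), at 38.5 and 29.4 CPM on day 3 and 19.7 and 7.36 CPM on day 0, a call lost without day 0 replicate 2 (0.0804) or day 3 replicate 1 (0.133) and on log2(FPKM + 1) without a filter (0.0665). On FPKM, Efnb2 led the ephrin-B sum up to day 3, with 39.1% there, and Efnb3 led in the sorted libraries with 43.0%. Of the 5 ephrin-As, 4 were higher on day 3 than on day 0 and Efna3 was not called. Efna1 was at 7.33 and 2.08 CPM on day 3 and 1.53 and 1.11 CPM on day 0. Its call was lost in the FPKM settings (limma, adjusted p = 0.0699 to 0.123) and on the deposited log2 values (0.0573). Without day 3 replicate 1 its log2 fold change was 0.66. The Efna4 call was lost without day 0 replicate 2 or either day 3 library. Efna4 was the leading ephrin-A on FPKM in every group at 38.4% to 45.0% of the sum.

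Both neuropilins and all 4 plexin-As were higher on day 3 than on day 0, against 27.6% of all genes. On day 1, by contrast, Nrp1 was higher, Nrp2 lower, and 1 of the 4 plexin-As higher than on day 0. Nrp1 was at 4.01 and 6.29 CPM on day 0, 16.3 and 13.9 on day 1, 42.3 and 42.8 on day 2, 71.8 and 66.7 on day 3, and 117, 102 and 105 in the sorted libraries. Nrp2 was at 18.15 and 17.8 CPM on day 0, 7.54 and 6.72 on day 1, 66.5 and 48.6 on day 2, 90 and 83.5 on day 3, and 145, 122 and 119 in the sorted libraries. On day 1 Nrp1 had moved up and Nrp2 down, each with no overlap, and from day 2 on both were up together. Nrp1 rose by 1.56 ± 0.24 on the log2 scale on day 1 against day 0 (edgeR, adjusted p = 0.00284). Nrp2 fell by 1.34 ± 0.20 (edgeR, adjusted p = 0.00276, but 0.0607 on log2(FPKM + 1) and 0.106 without a filter on FPKM), and rose by 3.02 ± 0.21 on day 2 against day 1 (adjusted p = 8.61e-05). The leading neuropilin on FPKM was Nrp2 on day 0 with 77.4%, Nrp1 on day 1 with 68.0% and Nrp2 from day 2 on with 53.6% to 57.1%. Plxna2, a plexin-A that signals for neuropilins and for class 6 semaphorins, had the largest first-day rise among members with over 3 counts in a day 0 library. It was at 6.15 and 7.58 CPM on day 0, 98.4 and 91.6 on day 1, 260.2 and 284 on day 2, 281 and 261 on day 3, and 381, 347 and 293 in the sorted libraries. Its replicates lay close together and its level was flat between days 2 and 3. Plxna2 rose by 3.79 ± 0.17 on the log2 scale on day 1 against day 0 (edgeR, adjusted p = 1.97e-05), by 1.52 ± 0.155 on day 2 against day 1 (adjusted p = 0.000352) and by 5.31 ± 0.19 on day 3 against day 0 (adjusted p = 9.9e-07). Plxna4, which takes part in semaphorin repulsion of sensory and sympathetic axons in mice, rose later, at 1.09 and 0.599 CPM on day 0, 2.24 and 1.88 on day 1, 7.25 and 6.94 on day 2, 49.5 and 24.4 on day 3, and 41.7, 33.7 and 26.1 in the sorted libraries. Its day 3 against day 0 log2 fold change was 5.43 ± 0.45 (edgeR, adjusted p = 2e-05). Plxnd1, a receptor for Sema3e, was at 17.9 and 12.2 CPM on day 3 and 3.26 and 1.71 CPM on day 0 (log2 fold change 2.59 ± 0.49, edgeR adjusted p = 0.00199). All 4 plexin-As, both tested plexin-Bs, Plxnc1 and Plxnd1 were higher on day 3 than on day 0. Plxna1 led the plexin-A sum on FPKM in every group, with 35.5% in the sorted libraries and 60.8% on day 0, and Plxnb2 led the plexin-Bs with 62.7% to 81.4%.

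**Figure D5:**
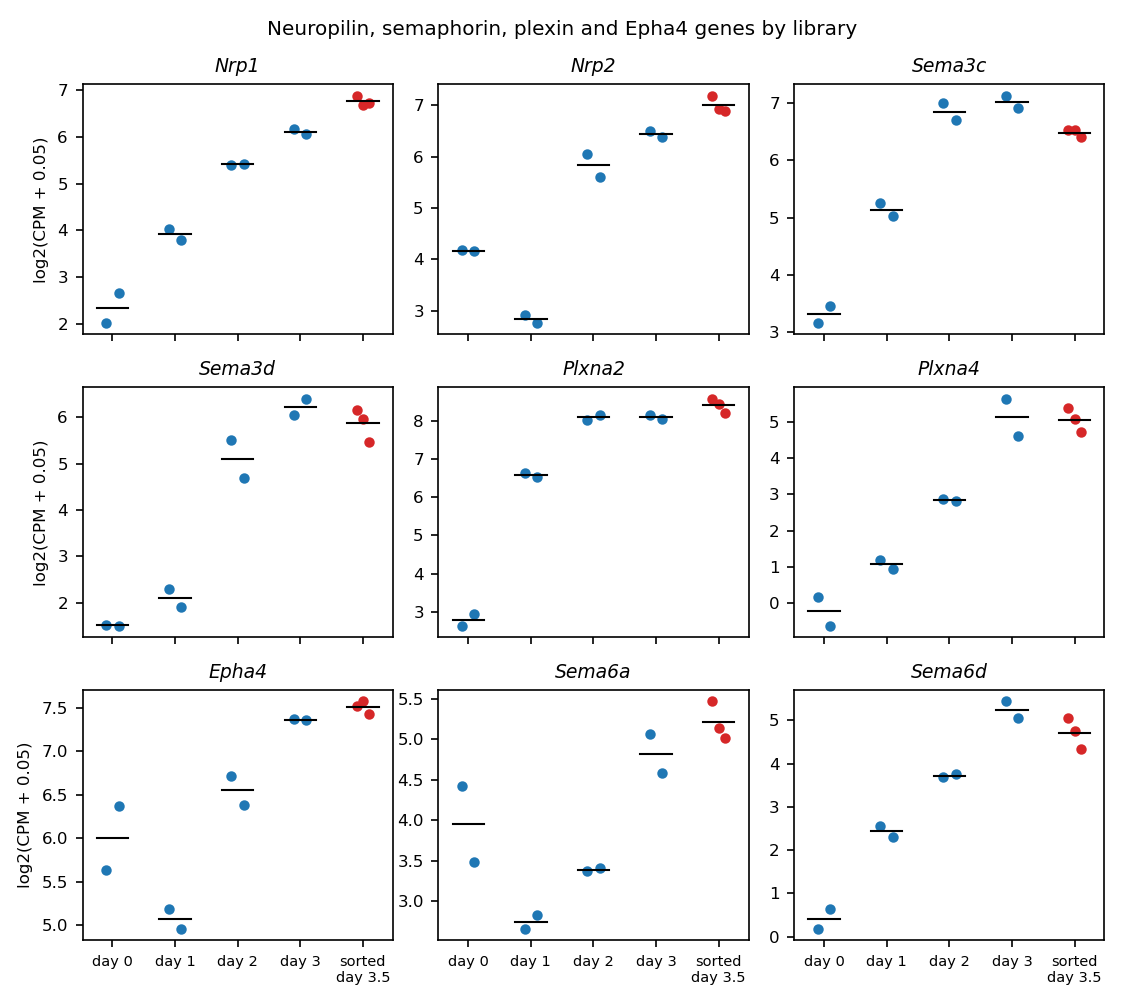
Log2(CPM + 0.05) of neuropilin, semaphorin, plexin and Epha4 genes (vertical axis, scaled per gene) by day, 1 point per library, blue for unsorted and red for sorted, with a bar at the mean. Plxna2 makes most of its rise by day 1, Plxna4 and Sema6d keep rising to day 3, and Nrp2, Epha4 and Sema6a have their lowest points on day 1.

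Of the 7 secreted class 3 semaphorins, 5 were higher on day 3 than on day 0, against 27.6% of all genes, and 2 were not called. Sema3c was at 8.90 and 11 CPM on day 0, 38.0 and 32.7 on day 1, 127.8 and 104 on day 2, 139.8 and 121 on day 3, and 92.2, 92.5 and 84.6 in the sorted libraries. Sema3d was at 2.82 and 2.78 CPM on day 0, 4.87 and 3.72 on day 1, 45.3 and 25.6 on day 2, 65.7 and 84.3 on day 3, and 71.0, 62.6 and 44.3 in the sorted libraries. Sema3c was up from day 1, while Sema3d made its jump on day 2. Sema3c rose by 1.83 ± 0.19 on the log2 scale on day 1 against day 0 (edgeR, adjusted p = 0.000616) and by 3.72 ± 0.21 on day 3 against day 0 (adjusted p = 3.45e-06). Sema3d rose by 3.05 ± 0.31 on day 2 against day 1 (edgeR, adjusted p = 0.000348) and by 4.75 ± 0.34 on day 3 against day 0 (adjusted p = 9.81e-06). Sema3a, a repellent for many sensory and motor axons, peaked on day 2 with 13.1 and 12.8 CPM, against 3.79 and 2.5 CPM on day 1, a rise of 2.05 ± 0.33 on the log2 scale (edgeR, adjusted p = 0.00347). Sema3b was at 47.4 and 20.7 CPM on day 3 and 2.41 and 1.16 CPM on day 0, a log2 fold change of 4.24 ± 0.53 (edgeR, adjusted p = 0.000187). Its replicate 1 was the higher one on day 3, as for the Slits, for Shh, Foxa2 and Ntn1, and for the median over members. Sema3e and Sema3g were not called on day 3 against day 0. Sema3e, the leading class 3 gene of stem cells on FPKM with 42.7%, gave way to Sema3c from day 1 on, which held 41.0% on day 1 and 55.6% on day 2.

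Of the transmembrane semaphorins, 2 of 6 class 4 genes were higher and 1 lower on day 3 than on day 0, both class 5 genes were higher, and 2 of 4 class 6 genes were higher. The class 4 counts were near the shares over all genes in that comparison, 27.6% higher and 26.3% lower. Sema6d was at 1.09 and 1.5 CPM on day 0, 5.88 and 4.91 on day 1, 12.9 and 13.4 on day 2, 43.4 and 33.1 on day 3, and 33.3, 27.0 and 20.2 in the sorted libraries. It rose by 2.07 ± 0.28 on the log2 scale on day 1 against day 0 (edgeR, adjusted p = 0.00175, but 0.0727 on log2(FPKM + 1) and 0.103 without a filter on FPKM) and by 4.90 ± 0.30 on day 3 against day 0 (adjusted p = 4.9e-06). Sema6a, a ligand of Plxna2 and Plxna4, dipped and returned, at 21.4 and 11.1 CPM on day 0, 6.28 and 7.03 on day 1, 10.3 and 10.6 on day 2, 33.4 and 23.9 on day 3, and 44.3, 35.3 and 32.4 in the sorted libraries. The low values of days 1 and 2 did not overlap those of any other group, and the net change over 3 days was not called (log2 fold change 0.82 ± 0.32, edgeR adjusted p = 0.0522). The Sema6a call on day 1 (log2 change -1.29 ± 0.32, edgeR adjusted p = 0.0231) was lost without day 0 replicate 1 (0.119), day 1 replicate 1 (0.0765) or day 1 replicate 2 (0.0509), on the deposited log2 values (0.0651) and in the FPKM settings (0.485 to 0.634). Sema4a was at 8.19 and 8.39 CPM on day 0, 3.10 and 2.5 on day 1, 0.780 and 1.75 on day 2, and 0.629 and 0.845 on day 3, a net log2 change of -3.48 ± 0.43 (edgeR, adjusted p = 0.000197). Sema4c went up as Sema4a went down, at 83.2 and 73.5 CPM on day 3 and 14.2 and 7.19 CPM on day 0, a log2 fold change of 2.88 ± 0.32 (edgeR, adjusted p = 0.000109). On FPKM, Sema4d led class 4 on day 0 with 30.7% of the sum and Sema4c led from day 1, with 60.9% on day 3 and 66.9% in the sorted libraries. Sema6c led class 6 in every group with 65.0% to 83.6%, Sema5b led class 5 with 73.2% to 87.7%, and Sema7a was not called on day 3 against day 0.

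The last unsorted step had fewer calls. On day 3 against day 2, 8 members were higher, against 2.81% of all genes, and 0 were lower, against 1.26%, in the edgeR test, and 0 were lower at an unadjusted p under 0.05 or in DESeq2. The 8 were the Slit genes Slit1 and Slit2, the netrin receptors Dcc and Unc5c, the plexin Plxna4, the semaphorins Sema6a and Sema6d, and Efnb3. Slit2 had the largest change, a log2 fold change of 2.75 ± 0.34 (edgeR, adjusted p = 0.00649), followed by Plxna4 (2.38 ± 0.37, adjusted p = 0.014), Slit1 (2.35 ± 0.46, adjusted p = 0.0286) and Dcc (2.28 ± 0.47, adjusted p = 0.0337). Unc5c changed by 1.89 ± 0.35 (edgeR, adjusted p = 0.0224), Sema6d by 1.54 ± 0.25 (adjusted p = 0.0154), Sema6a by 1.46 ± 0.32 (adjusted p = 0.0416) and Efnb3 by 1.03 ± 0.21 (adjusted p = 0.03). In all 8 the day 3 libraries lay above both day 2 libraries, as they also did in uncalled members such as Nrp1, Nrp2 and Plxna1. The share of all genes with such a separation was not counted. These calls were easily lost when 1 library of day 2 or day 3 was left out, which leaves 1 library in that group. Fewer genes were then called over all genes too, so the loss was not particular to these members. Leaving out day 3 replicate 1, or day 2 replicate 2, gave 0 higher members (with all libraries 16 at an unadjusted p under 0.05, and 12 in DESeq2), where Slit2 had adjusted p of 0.0637 and 0.0664. Leaving out day 2 replicate 1 gave 1. Without day 3 replicate 2, Dcc (0.117) and Sema6a (0.0637) were lost. On log2(FPKM + 1) there were 3, on log2(FPKM + 0.1) 0, on the deposited log2 values 4 and with an offset for GC content 17. In the same order, 163 and 44 of 16008 genes, then 293 and 1394 of 16810, were higher over all genes. The 8 neuron markers summed to 948 to 1150 CPM on day 3 and 108 to 129 CPM on day 2, and their part in these 8 changes was not tested.

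Few guidance genes were called between the sorted day 3.5 cells and the day 3 culture. Of 63 members tested, 2 were higher, against 0.435% of 17006 genes, and 1 lower, against 2.93%, and the median log2 fold change was -0.08 over members and -0.01 over all genes. Epha3, an ephrin-A receptor, was at 14.4, 11.7 and 8.31 CPM in the sorted libraries and 0.849 and 2.79 CPM on day 3, a log2 fold change of 2.65 ± 0.58 (edgeR, adjusted p = 0.0305). Sema5b was at 52.0, 49.8 and 55.9 CPM in the sorted libraries and 28.6 and 28.4 CPM on day 3, a log2 fold change of 0.88 ± 0.19 (edgeR, adjusted p = 0.031). Epha1 was at 0.956, 1.23 and 0.735 CPM in the sorted libraries and 5.88 and 3.06 CPM on day 3, and fell by 2.18 ± 0.42 on the log2 scale (edgeR, adjusted p = 0.017). None of the 3 had overlapping groups. Between the same groups the 7 extraembryonic endoderm markers summed to 34.4 to 40.2 CPM in the sorted libraries and 143 to 183 CPM on day 3, and Ttr had 3 or fewer counts in each sorted library. The 5 pluripotency markers summed to 3.47 to 6.74 CPM in the sorted libraries and 11.2 to 15.3 CPM on day 3. The 7 neural progenitor markers summed to 1518 to 1808 CPM in the sorted libraries and 1160 to 1169 CPM on day 3. Nes, Fabp7 and Prom1 lay above both day 3 libraries in each sorted one, and Prom1 codes for the Prominin-1 used in the sort. Sox1, Sox2, Pax6 and Hes5 overlapped between the 2 groups. The 8 neuron markers were not lower after the sort, at sums of 923 to 1465 CPM in the sorted libraries and 948 to 1150 CPM on day 3. The part of these cell types in the 3 changes was not tested. Each call was lost on leaving out day 3 replicate 1 (adjusted p = 0.251 for Epha3, 0.223 for Sema5b and 0.195 for Epha1), without sorted replicate 1 (0.109, 0.0991 and 0.0805) and without sorted replicate 2 (0.0965, 0.0956 and 0.0523). Without sorted replicate 3 Epha1 (0.0586) and Sema5b (0.0798) were lost, and Sema5b also without day 3 replicate 2 (0.128), day 2 replicate 1 (0.0571) or day 2 replicate 2 (0.0514). With deposited FPKM values Epha1 had adjusted p of 0.0959 to 0.462 and Sema5b of 0.0511 to 0.0792, Epha3 was lost on log2(FPKM + 0.1) (0.0624), and Sema5b was lost on the deposited log2 values (0.0604). The Slits stayed high after the sort, with log2 fold changes of 0.42 ± 0.37 for Slit1, 0.31 ± 0.27 for Slit2 and 0.31 ± 0.26 for Slit3 over day 3 (edgeR, adjusted p = 0.649, 0.656 and 0.64). Their sorted and day 3 libraries overlapped. Nrp1 and Nrp2 stood above both day 3 libraries in all 3 sorted ones without a call (log2 fold change 0.65 ± 0.17 and 0.57 ± 0.16, edgeR adjusted p = 0.0733 and 0.0824), and Unc5b below (-1.03 ± 0.32, adjusted p = 0.119). Low-level members differed among the sorted libraries themselves, as with Epha5 at 6.51, 2.85 and 1.32 CPM and Dcc at 5.20, 3.11 and 1.47 CPM. The labels give all sorted libraries the same library number prefix and all unsorted ones another. The sort, the later time, the lower depth and this prefix cannot be told apart.

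Other genes of the guidance pathway were counted in the same fit, in which 27.6% of all genes were higher and 26.3% lower on day 3 than on day 0. Of 13 tested netrins and other ligands, 11 were higher on day 3 than on day 0. Ntn1, which codes for netrin-1, was at 1358 and 765 CPM on day 3 and 25.9 and 23.6 CPM on day 0, a log2 fold change of 5.43 ± 0.33 (edgeR, adjusted p = 4.64e-06), and it made most of this rise on day 2 (log2 fold change 4.41 ± 0.31 over day 1, adjusted p = 8.96e-05). Rgma, a repulsive ligand of neogenin, was at 135 and 114 CPM on day 3 and 3.64 and 1.63 CPM on day 0. Of 17 other receptors and adhesion molecules, 15 were higher and 1 lower. Cxcr4, the receptor of the chemokine Cxcl12, was at 157 and 109 CPM on day 3 and 0.986 and 0.985 CPM on day 0 (log2 fold change 7.08 ± 0.35, edgeR, adjusted p = 2.26e-06). The adhesion molecule Mcam was the one that fell, by 2.32 ± 0.29 (adjusted p = 0.00018). Cntn2, an adhesion molecule of commissural axons, and L1cam, which supports axon growth, rose at the last step after an earlier fall. Cntn2 was at 12.2 and 6.81 CPM on day 0, 4.08 and 5.25 on day 1, 8.14 and 12 on day 2, and 192 and 174 on day 3. Its fall on day 1 was a log2 change of -1.03 ± 0.30 (edgeR, adjusted p = 0.0407). L1cam was at 6.38 and 7.35 CPM on day 1, 2.08 and 3.60 on day 2, and 24.0 and 20.8 on day 3. Its fall on day 2 was a log2 change of -1.27 ± 0.32 (edgeR, adjusted p = 0.0238). Of 44 cytoplasmic effectors, 29 were higher and 4 lower on day 3 than on day 0. Srgap3, a Rac inhibitor downstream of Robo, was at 309 and 266 CPM on day 3 and 10.2 and 8.65 CPM on day 0 (log2 fold change 4.94 ± 0.20, edgeR, adjusted p = 1.36e-06). The small GTPase gene Rhoa was lower by a log2 change of -0.67 ± 0.18 (adjusted p = 0.0127).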

How the data were processed

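Polyadenylated RNA was sequenced from 11 libraries. Per the labels, libraries were TruSeq preparations, and the submitters' processing notes list GRCm38 and mm10 as builds and, among the tools, Cufflinks 2.1.1, HTSeq 0.6.1, limma and TopHat2 2.0.4. The sources used here do not give the annotation or counting strand. The authors deposited estimated counts (whole in 38093 genes, with fractions in 104, Efna5 the only member among them), which were rounded here. They also deposited log2 values, equal to log2 CPM of the count plus 0.5, and FPKM values, whose depth is not recorded.

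Counts were tested over all genes with edgeR 4.0.16 (quasi-likelihood, TMM, filterByExpr with minimum count 10, Benjamini-Hochberg threshold 0.05). Days 0 to 3 were fitted on 8 libraries and sorted day 3.5 against day 3 on all 11. SE is the log2 fold change over the square root of F. CPM uses TMM factors. A group with 3 or fewer counts in each library gets no fold. Alternatives were RLE factors, no filter, DESeq2 1.42.0, other libraries in the fit, a replicate block, limma 3.58.1 on log2(FPKM + 1), log2(FPKM + 0.1), unfiltered log2(FPKM + 1) or the deposited log2 values, each library left out in turn, and a GC offset added after the data were seen. FPKM settings kept genes with at least 1 FPKM in 2 libraries.

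Named genes were the 6 largest called changes a direction and comparison with at least 1 CPM, a fixed panel, each family's leading gene on FPKM, and up to 2 other pathway genes a direction. Members and lists were chosen with earlier results of these data known. Positions are from GENCODE M21 on GRCm38, matched for 65 members by symbol. One marker gene is not reported here.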

Additional observations from a re-analysis of the deposited data

How the results depend on the processing

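Net change and the test of any day were steady. Leaving out 1 library gave 41 to 49 members higher and 5 to 6 lower on day 3 against day 0, and 46 to 54 changed on any day. Across libraries left out, the counts were 11 to 17 higher and 4 to 8 lower on day 1 against day 0, 18 to 38 and 0 to 4 on day 2 against day 1, 0 to 11 higher on day 3 against day 2, and 0 to 3 higher and 0 to 2 lower for sorted day 3.5 against day 3. Over the members called in each comparison, the settings kept a call 1907 times, lost it 342 times and reversed none. Members without a main call entered the settings only through the counts of called members. The other pathway genes were not followed across settings. Day 1 against day 0 had 10 higher and 1 lower on log2(FPKM + 1), 2 lower on log2(FPKM + 0.1), 6 higher and 2 lower without a filter, and 4 lower on the deposited log2 values. Day 2 against day 1 had 20, 18 and 17 higher and 0, 0 and 2 lower in the 3 FPKM settings in that order, and 7 lower with the GC offset. Day 3 against day 2 had 14 higher with other libraries in the fit, 3, 0 and 1 in the FPKM settings, 4 on the deposited log2 values and 17 with the GC offset. Sorted day 3.5 against day 3 had 4 higher and 5 lower without a count filter, 5 and 3 in DESeq2, 2 lower in a fit of those 5 libraries alone, 1, 0 and 1 higher and 0 lower in the FPKM settings, 1 higher and 2 lower on the deposited log2 values, and 6 and 5 with the GC offset. Calls over all genes moved between the settings too, and the causes were not tested. The deposited log2 values moved the median of all genes by 0.15 on day 1 and 0.17 on day 3 against day 0, and FPKM with pseudocount 0.1 by 0.10 and 0.13. Replicate numbers did not pair the libraries (correlations of same-numbered deviations from -0.63 to 0.57). As a replicate block they gave 4 higher on day 3 against day 2, and 1 higher and 0 lower for sorted day 3.5 against day 3. Depth limits the members near the 3-count floor, among them Robo3, Epha5 and Epha10, and these limits cover counting error only.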
